A study of Mus musculus with 6 samples.

Results

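The cytoplasmic ribosomal protein genes were taken as the protein-coding rows whose symbol begins with Rpl or Rps and a digit, together with Rplp0, Rplp1, Rplp2 and Rpsa. Of 102 rows named in this way, 10 S6 kinases (Rps6k names) and 6 rows with -ps in the symbol were left out, which gave 86 genes of the 31227 rows of the table. Among them 77 encode the standard proteins, 46 of the large subunit including the 3 stalk proteins and 31 of the small subunit. The other 9 carry the names of paralogues or partners: Rpl3l, Rpl7l1, Rpl10l, Rpl22l1, Rpl36al, Rpl39l, Rps27l, Rps27rt and Rps19bp1.

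The RNA came from mouse intestinal organoids, closed epithelial cultures that grow from crypts, in 3 groups of 2 RNA-seq libraries. The first group lacked Smad4, the shared partner of the receptor-activated Smads downstream of TGF-β and BMP, and received 0.5 nM TGF-β. The second lacked Smad4 and received no TGF-β, and the third was wild type (WT) with no TGF-β. Every library is labelled 48 h, and the treatment text can be read as TGF-β for 48 h or as 48 h followed by 2 more days with it. All organoids grew in medium with EGF at 50 ng/ml, Noggin, a BMP inhibitor, at 100 ng/ml and R-spondin1, a Wnt amplifier, at 500 ng/ml. The labels say neither how Smad4 was inactivated nor whether the libraries of a group came from separate animals or cultures. The p-values therefore measure the spread between these libraries, which may be technical. There was no WT group with TGF-β, so the effect of TGF-β could be compared within Smad4 KO organoids only.

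Each ribosome joins a small subunit, which reads the mRNA, to a large subunit, which forms the peptide bond. Ribosomal proteins are made in matched amounts, assembled with ribosomal RNA in the nucleolus, and used heavily by dividing crypt cells. Their mRNAs usually start with a run of pyrimidines, the 5′ terminal oligopyrimidine (TOP) tract, through which mTORC1 and its target Larp1 control their translation and stability. Control of translation alone leaves mRNA levels as they are and would not be seen in these data.

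The start sites of some members are shown first, to show where pyrimidine runs lie. Rpl15, Rpl27a and Rps18 are not described further, and many members described below are not shown. RefSeq (GRCm38.p6) held a promoter entry for 66 of the 86 genes, 57 of them standard proteins. Each line spans 20 bases before to 20 bases after the annotated transcription start, so that it joins the upstream flank to the start of the 5′ UTR. Capitals mark the longest run of C or T of at least 6 bases found within 30 bases of the start, as far as it lies in the window shown. The run of Rps27rt, 7 bases from position 17 after the start, reaches past the end of its line.
Rpl15 (chr14:18270967-18271006, minus strand): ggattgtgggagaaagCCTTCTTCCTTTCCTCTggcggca
Rpl27a (chr7:109519175-109519214, plus strand): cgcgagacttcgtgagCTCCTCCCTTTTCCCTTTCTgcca
Rpl13 (chr8:123102330-123102369, plus strand): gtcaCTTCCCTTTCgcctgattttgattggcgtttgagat
Rplp2 (chr7:141447631-141447670, plus strand): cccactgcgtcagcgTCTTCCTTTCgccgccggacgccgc
Rps18 (chr17:33955646-33955685, minus strand): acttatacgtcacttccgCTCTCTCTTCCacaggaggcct
Rps6 (chr4:86857348-86857387, minus strand): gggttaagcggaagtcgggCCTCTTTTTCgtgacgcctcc
Rpl22l1 (chr3:28805488-28805527, plus strand): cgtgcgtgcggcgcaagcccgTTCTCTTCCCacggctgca
Rps27 (chr3:90213629-90213668, minus strand): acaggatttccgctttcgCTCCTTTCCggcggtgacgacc
Rps27rt (chr9:114982720-114982759, minus strand): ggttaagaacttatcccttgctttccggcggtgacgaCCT
Rpl22 (chr4:152325706-152325745, plus strand): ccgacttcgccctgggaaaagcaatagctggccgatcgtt
Rpl7l1 (chr17:46782637-46782676, minus strand): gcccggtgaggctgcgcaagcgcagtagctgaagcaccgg
The first 8 hold a pyrimidine run, which begins within a few bases of the start in all but Rpl13. The run of Rpl13 begins at position −16 and ends before the annotated start, so it is not part of the annotated mRNA. The windows of Rpl22 and Rpl7l1 hold no run of 6. Rps27 and Rps27rt, a near-identical gene whose symbol marks a retrogene, share the stretch from the end of the Rps27 tract onward.

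Over all standard proteins with an entry, a run of 8 or more C or T within 30 bases of the start, read on the coding strand, was present in 32 of 57 genes (56.1%). The same run was present in 25.8% of all 27025 genes with an entry. Such runs can lie wholly before the start, so they do not by themselves mark a TOP tract. The shorter motif CTTTC, which lies within some of these runs, stood within 30 bases of the start in 21 of the 57 genes (36.8%), against 9.18% of all genes. CCGGAAG, the core of an ETS-type site, was found on either strand of the 300-base promoter in 24 genes (42.1%), against 9.93% of all genes. The E-box CACGTG, read on both strands, was found in 6 genes (10.5%), against 8.09% of all genes. These matches describe the letters in the windows and no binding was measured.

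Table totals ran from 40549534 to 50699356 units per library, where a unit is an estimated count that is not a single fragment. Smad4 itself had 25.2 and 29.5 CPM (units scaled to a common library total, with TMM factors) in Smad4 KO organoids with TGF-β, 21.7 and 23.1 CPM in Smad4 KO organoids, and 99.4 and 109.5 CPM in WT organoids. It was therefore lower in all 4 KO libraries and not at 0. The cultures were epithelial by their markers: the 8 epithelial genes summed to 14150 and 14270 CPM with TGF-β, 10050 and 10210 CPM in Smad4 KO libraries, and 6999 and 7111 CPM in WT libraries. Of the 8, 6 were higher in Smad4 KO against WT, where 16.9% of all tested genes were higher. With TGF-β against Smad4 KO 6 were higher and 1 lower, against 7.78% and 8.48% of all tested genes. Cdx2 was among these in neither comparison (log2 fold changes −0.09 and −0.02), and Krt18 was not in the first (−0.01). Krt8 and Krt19 held 5194 and 3374 of the 14150 CPM in TGF-β library 1. In WT library 1 they held 2217 and 1082 of the 6999. The order of the summed values is the opposite of that of the ribosomal protein share given next, and its part in that result was not tested. Fibroblast markers summed to at most 0.479 CPM with Col1a2, Col3a1, Dcn and Lum at 0, endothelial markers to at most 0.949 CPM with Cdh5 and Kdr at 0, and leukocyte markers to at most 1.14 CPM with Cd79a and Adgre1 at 0.

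Ribosomal protein genes took up a smaller part of the mRNA pool in both Smad4 KO groups than in WT organoids, and the smallest part in those given TGF-β. They made up 5.26% and 5.12% of all units in the Smad4 KO libraries with TGF-β, 5.68% and 5.76% in the Smad4 KO libraries, and 6.81% and 6.75% in the WT libraries. Group means were 5.19 ± 0.0955%, 5.72 ± 0.0594% and 6.78 ± 0.0453% in the same order (SD, n = 2 each). No library of one group overlapped another group, and each gap was larger than the spread between replicates. With 2 libraries against 2, the smallest 2-sided p of an exact permutation test is 0.333, so the share was not tested. These are shares of the sequenced RNA: fewer cells of a type that makes many ribosomes and less of this mRNA per cell cannot be told apart in bulk libraries.

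**Figure D1:**
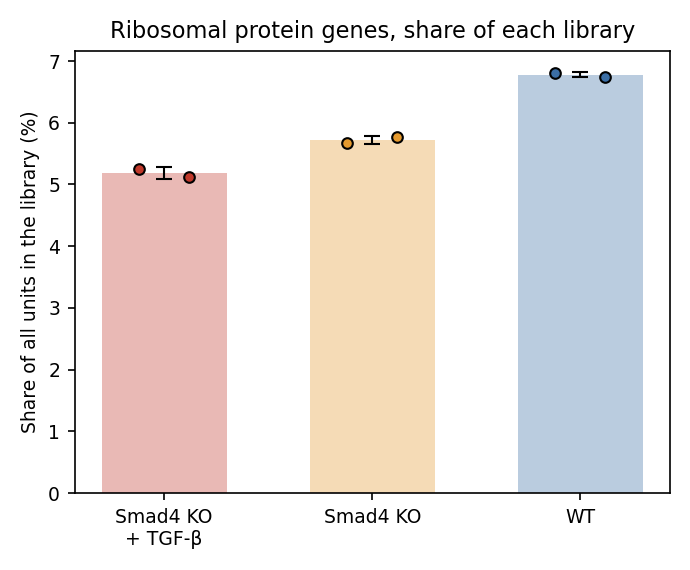
Share of all units held by the 86 ribosomal protein genes, in percent of the library. Points are libraries, bars are group means and error bars are SDs of 2 libraries. The share lay between 5.12% and 5.26% with TGF-β in Smad4 KO organoids, 5.68% and 5.76% in Smad4 KO organoids, and 6.75% and 6.81% in WT organoids.

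Both subunits were lower in like measure. The ratio of summed large-subunit to small-subunit CPM was 1.44 and 1.46 in Smad4 KO libraries with TGF-β, 1.41 and 1.42 in Smad4 KO libraries, and 1.45 and 1.42 in WT libraries. The TGF-β and WT values overlap, and the Smad4 KO values lie just below both. The median standard protein gene had 605.6 and 573.6 CPM with TGF-β, 666.4 and 644.7 CPM in Smad4 KO libraries, and 745.7 and 724.8 CPM in WT libraries.

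Of the 86 genes, 83 had enough units to be tested gene by gene with edgeR's quasi-likelihood test, in which a gene was called at a Benjamini-Hochberg adjusted p under 0.05 over all 15503 genes tested. Rpl10l and Rpl39l, paralogues best known from the testis, were listed at 0 in every library. Rpl3l, known from heart and skeletal muscle, reached at most 0.16 CPM. All 77 standard protein genes were tested, and none averaged under 166.7 CPM, so the filter on low values removed no standard protein.

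In Smad4 KO organoids against WT, 43 of the 83 genes fell and 2 rose. The background was 13.4% of all tested genes called lower and 16.9% called higher. The median log2 fold change of the 83 genes was −0.17, against −0.02 over all tested genes, and 70 of the 83 values were negative. For the standard proteins the median change was a fall of 11.4%, and of those called only 2 passed 1.5-fold, Rpl17 and Rpl22. In 58 of the 83 genes both Smad4 KO libraries lay below both WT libraries, against 34.5% of all tested genes, and the 58 include all 43 called lower. On library totals without TMM scaling the all-gene median itself moved to −0.11 and the median of the ribosomal protein genes to −0.26, and 42.1% of all calls were higher in place of 55.7%. Without Smad4 KO library 1 the number called lower was 28.

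The group was lower again in Smad4 KO organoids with TGF-β. With TGF-β, 39 of the 83 genes fell relative to Smad4 KO organoids without it and none rose, against a background of 8.48% lower and 7.78% higher. At an unadjusted p under 0.05 edgeR placed 3 genes higher, all of them paralogues or partners by name, and DESeq2 called 1 higher, Rps27l. The median log2 fold change was −0.17, against −0.01 over all tested genes, and 77 of 83 values were negative. In 61 of the 83 genes both Smad4 KO libraries with TGF-β lay below both without it, against 29.1% of all tested genes. Only Rps25 passed 1.5-fold among the called standard proteins. Without TGF-β library 2 the number called lower was 25. This comparison shares its Smad4 KO libraries with the preceding one.

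Against WT, Smad4 KO organoids with TGF-β had 60 of the 83 genes lower and none higher, with 19.0% of all tested genes lower and 20.7% higher. No gene was higher at an unadjusted p under 0.05 in edgeR either, and DESeq2 called 63 lower and 0 higher. The median log2 fold change was −0.33, against −0.02 over all tested genes. All 77 standard proteins had a negative value, with a median fall of 20.8%, and in 75 of the 83 genes both libraries with TGF-β lay below both WT libraries, against 37.3% of all tested genes. In 45 of the 83 genes all 6 libraries followed the order TGF-β-treated Smad4 KO below Smad4 KO below WT, an order found in 10.4% of all tested genes. By group means alone 64 genes followed it, a looser order for which no share over all tested genes was taken.

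**Figure D2:**
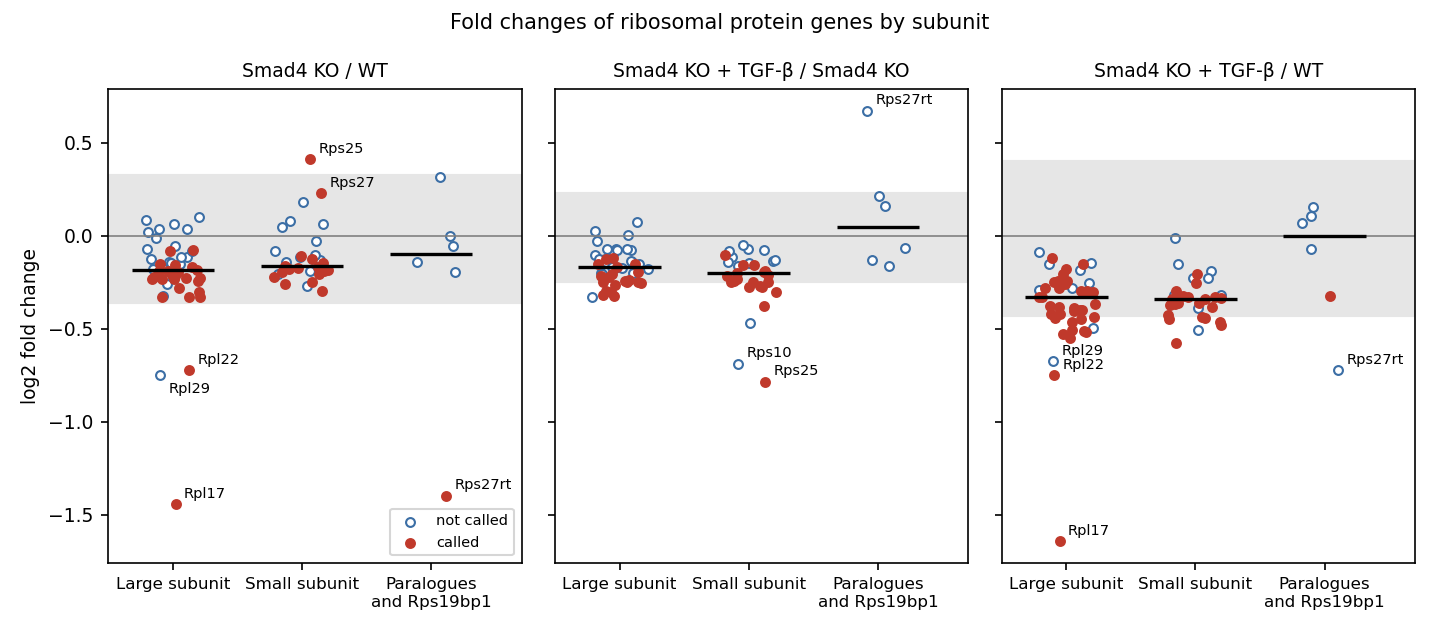
log2 fold changes of the 83 tested ribosomal protein genes in the 3 comparisons, by subunit, with the 3 stalk genes under the large subunit. Filled points passed the edgeR test at an adjusted p under 0.05, open points did not, black lines are medians of each column, and the grey band spans the middle quartiles of all tested genes. Most points lie just below 0 within the grey band, Rpl17 and Rpl22 lie far below it against WT, and Rps25 lies above 0 in Smad4 KO against WT and below it with TGF-β.

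The large subunit and the small subunit moved by like amounts. Of 46 large-subunit genes, 26 fell in Smad4 KO against WT, 20 fell with TGF-β against Smad4 KO and 37 fell with TGF-β against WT, and none rose in edgeR, DESeq2 or at an unadjusted p under 0.05. Their medians were −0.19, −0.17 and −0.33. Over all tested genes the shares lower were 13.4%, 8.48% and 19.0%. Of 31 small-subunit genes, 16, 19 and 22 fell in the same comparisons, with medians of −0.16, −0.20 and −0.34. The 2 that rose in Smad4 KO against WT were both of the small subunit, Rps25 and Rps27. Among the 16 standard proteins called lower in no comparison of the main edgeR fit were Rpl7, Rpl11 and Rps20. Also among them were Rpl7a, Rpl21, Rpl29, Rps10 and Rps27a, whose replicates were among those that differed most.

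**Figure D3:**
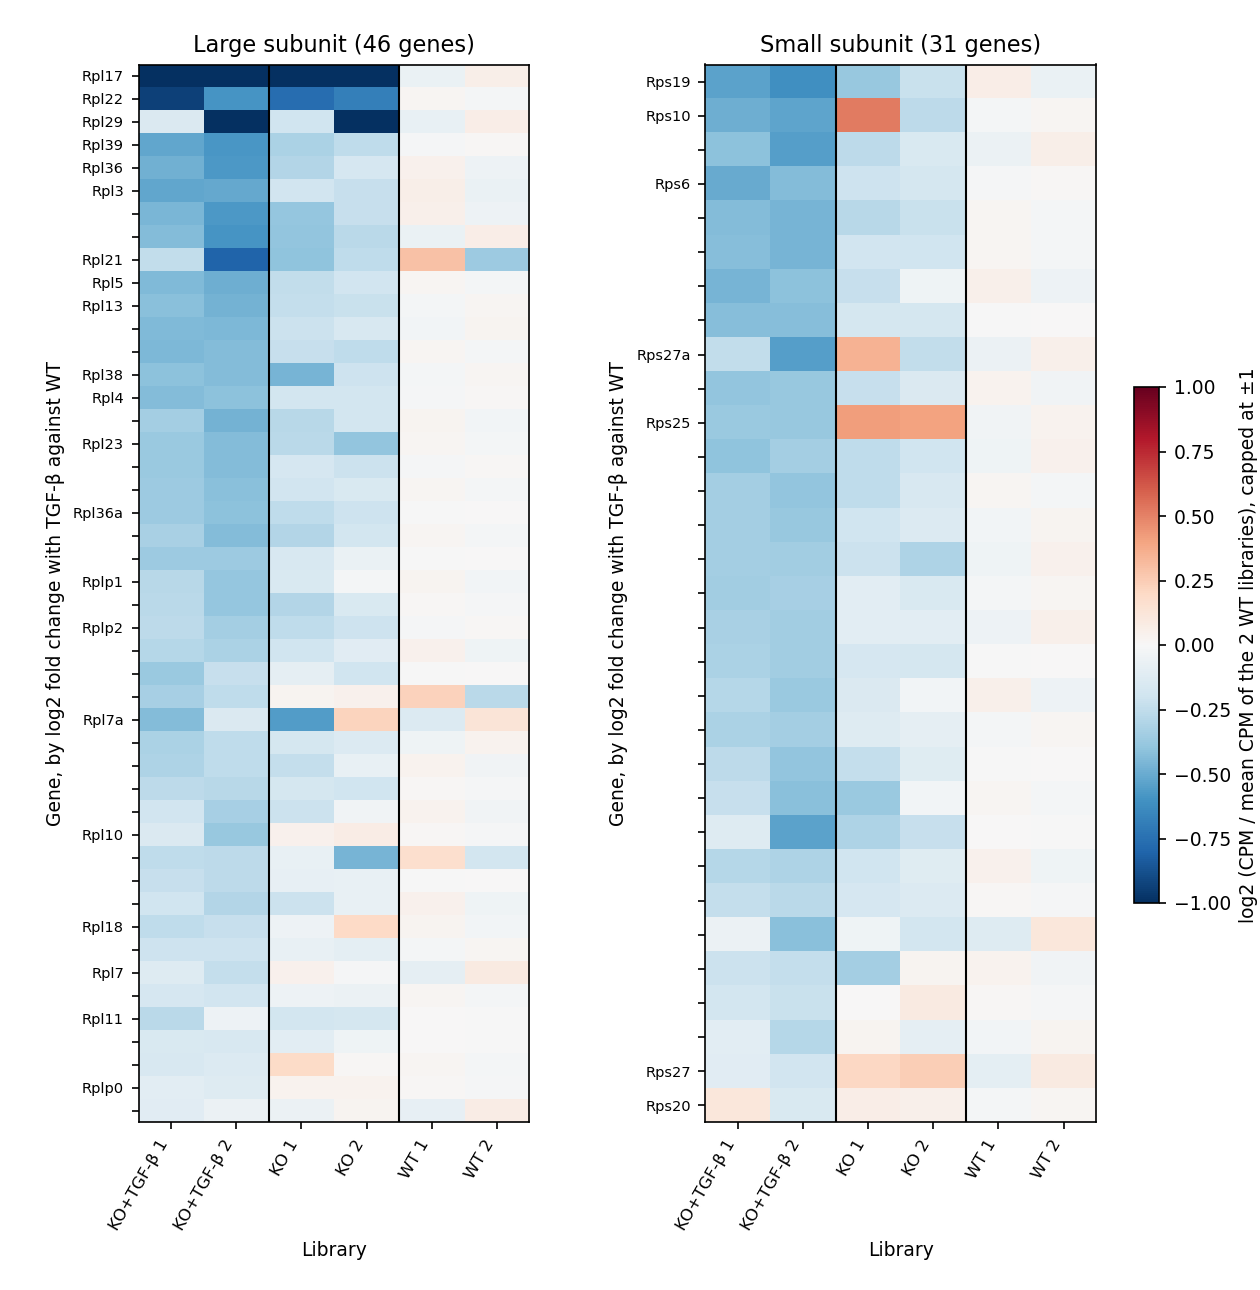
Levels of the 77 standard ribosomal protein genes in each library, as log2 of CPM over the mean CPM of the 2 WT libraries, capped at ±1, with genes ordered by fold change with TGF-β against WT and names beside the rows described in the text. Blue is below WT and red above it. Most rows are pale blue in the Smad4 KO libraries and deeper blue with TGF-β, Rps25 is red in both Smad4 KO libraries, and Rpl29, Rps10, Rps27a, Rpl21 and Rpl7a differ between replicates.

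Within the large subunit, Rpl4 and several others stepped down from group to group with close replicates. Rpl4, whose protein lines the peptide exit tunnel and which was chosen after its values were seen, had 1830 and 1856 CPM with TGF-β, 2172 and 2178 CPM in Smad4 KO libraries, and 2446 and 2494 CPM in WT libraries. The 3 groups do not overlap, and the gaps are several times the replicate differences. Its log2 fold changes were −0.18 ± 0.02 in Smad4 KO against WT (SE, edgeR adjusted p = 0.000466), −0.24 ± 0.02 with TGF-β against Smad4 KO (adjusted p = 0.000296) and −0.42 ± 0.02 with TGF-β against WT.

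Rpl3, which sits beside the peptidyl transferase centre, had 997.3 and 998.8 CPM with TGF-β, 1250 and 1215 CPM in Smad4 KO libraries, and 1489 and 1365 CPM in WT libraries. It fell by 0.21 on the log2 scale in Smad4 KO against WT (SE 0.04, edgeR adjusted p = 0.0102) and by 0.31 with TGF-β against Smad4 KO (SE 0.04, adjusted p = 0.00417). The groups do not overlap, although the first call was lost without Smad4 KO library 2. Rpl39, a small protein of the exit tunnel encoded on the X chromosome, had 298.4 and 285.2 CPM with TGF-β, 342.7 and 359.2 CPM in Smad4 KO libraries, and 424.9 and 429.9 CPM in WT libraries. Its log2 fold changes were −0.28 and −0.27 in the 2 steps and −0.55 ± 0.04 across both (SE, edgeR adjusted p = 0.000125). Rpl36 had 460.1 and 431.4 CPM with TGF-β, 523.7 and 572.7 CPM in Smad4 KO libraries, and 663.3 and 621 CPM in WT libraries, so its groups were also ordered without overlap.

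Rpl13, the standard protein with the highest level per length after Rplp1 and Rplp0, had 1234 and 1189 CPM with TGF-β, 1400 and 1413 CPM in Smad4 KO libraries, and 1631 and 1670 CPM in WT libraries. It fell in each step by about as much, with log2 fold changes of −0.23 ± 0.03 and −0.22 ± 0.03 (SE, edgeR adjusted p = 0.000885 and 0.00211). Rpl5, which with Rpl11 and 5S rRNA forms a particle that can bind Mdm2, was chosen after its values were seen and behaved alike: its log2 fold changes were −0.22 and −0.25. Rpl11 did not pass the test in any comparison, with log2 fold changes of −0.18, 0.02 and −0.16.

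In another set of large-subunit genes the step between Smad4 KO and WT passed the test and the TGF-β step did not. Rpl23 had 328.2 and 313.2 CPM with TGF-β, 351.3 and 321.7 CPM in Smad4 KO libraries, and 429.9 and 417.2 CPM in WT libraries. It fell by 0.33 against WT in Smad4 KO organoids (SE 0.05, edgeR adjusted p = 0.00451) and its TGF-β step was −0.07 (adjusted p = 0.448). Rpl38, known in mice for its part in translating Hox mRNAs during patterning, had 236.1 and 233.2 CPM with TGF-β, 227.8 and 272.5 CPM in Smad4 KO libraries, and 310.7 and 318.2 CPM in WT libraries. Its Smad4 KO libraries spanned those with TGF-β, and its call against WT was lost without either WT library. Whether the 2 steps differ in size was not tested for these genes.

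The reverse held for Rpl10 and Rpl18. Rpl10, which completes the large subunit late in its maturation, had 529.8 and 451.6 CPM with TGF-β, 605.3 and 619.5 CPM in Smad4 KO libraries, and 590.4 and 583.5 CPM in WT libraries. It did not pass the test in Smad4 KO against WT (log2 fold change 0.06, edgeR adjusted p = 0.564, and −0.03 without TMM scaling) and fell with TGF-β against Smad4 KO (−0.32 ± 0.07, SE, adjusted p = 0.0266). Rpl18 had a value of 0.08 in Smad4 KO against WT (−0.01 without TMM scaling) and fell by 0.32 with TGF-β (SE 0.08, edgeR adjusted p = 0.0345). The Rpl10 call was lost without either Smad4 KO library. The Rpl18 call was lost on library totals, in the fit of the 4 libraries compared, and without any single TGF-β or WT library.

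The largest change of any standard protein was in Rpl17, whose protein lies near the mouth of the exit tunnel. Rpl17 had 165.9 and 207.6 CPM with TGF-β, 153.6 and 275.1 CPM in Smad4 KO libraries, and 558.4 and 607.9 CPM in WT libraries. All 4 KO libraries were far below both WT libraries, and the 2 Smad4 KO libraries spanned those with TGF-β. The log2 fold change was −1.44 ± 0.26 in Smad4 KO against WT (SE, edgeR adjusted p = 0.00761) and −1.64 ± 0.26 with TGF-β against WT (adjusted p = 0.00333). The TGF-β step was −0.20, which turned to 0.28 without Smad4 KO library 2. Rpl17 (ENSMUSG00000062328) lies on chromosome 18 at 74998558 to 75003381 (GRCm38, GENCODE vM21), 1294778 bp from the end of Smad4 at 73639009 to 73703780. It also has 22 near-identical genes in the annotation, defined as a transcript at least 95% identical over at least 80% of its coding sequence, none of them a row of the table, so how its reads were shared out is uncertain. The part of either fact in the change was not tested.

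Rpl22, an RNA-binding protein that many cells can do without, in part because its paralogue Rpl22l1 can take its place, had 230.2 and 291.8 CPM with TGF-β, 259.6 and 273.3 CPM in Smad4 KO libraries, and 445 and 434.3 CPM in WT libraries. Both KO groups lay below WT with no overlap and overlapped each other. It fell by 0.72 on the log2 scale in Smad4 KO against WT (SE 0.10, edgeR adjusted p = 0.00313), which is 39.4% lower. With TGF-β against WT it fell by 0.75 (SE 0.10, adjusted p = 0.00183). The TGF-β step was −0.03 (adjusted p = 0.899), and was 0.02 without TMM scaling. Rpl22 (ENSMUSG00000028936, chromosome 4, 152325742 to 152334071) has 1 near-identical gene, and no other gene overlaps its exons. Rpl22l1 had 105.4 and 117.8 CPM with TGF-β, 118 and 126.8 CPM in Smad4 KO libraries, and 143.7 and 136.2 CPM in WT libraries. In mouse cells the protein of Rpl22 is known to repress Rpl22l1, and here Rpl22l1 was not higher: its log2 fold changes were −0.19 (edgeR adjusted p = 0.0979), −0.13 and −0.33 ± 0.07 (SE, adjusted p = 0.0138), the last lost without TGF-β library 1 or WT library 1.

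The stalk proteins Rplp0, Rplp1 and Rplp2, which recruit the elongation factors, held 2 of the highest levels per length. Per kilobase of mRNA, Rplp1 averaged 2490 CPM and Rplp0 1841 CPM over the 6 libraries, against 1824 CPM for Rpl13. Rplp0 had 2363 and 2329 CPM with TGF-β, 2606 and 2607 CPM in Smad4 KO libraries, and 2569 and 2526 CPM in WT libraries. Its level in Smad4 KO organoids was thus not below WT (log2 fold change 0.03, edgeR adjusted p = 0.165), but without TMM scaling it was −0.06 and passed the test (adjusted p = 0.026). Rplp0 fell with TGF-β against Smad4 KO by 0.15 (SE 0.02, edgeR adjusted p = 0.00141). Rplp1 had 1123 and 1042 CPM with TGF-β, 1225 and 1344 CPM in Smad4 KO libraries, and 1384 and 1338 CPM in WT libraries, and fell in the TGF-β step (−0.25, edgeR adjusted p = 0.025), a call lost without TGF-β library 2 or Smad4 KO library 2. Rplp2 had 605.6 and 573.6 CPM with TGF-β, 610.6 and 630.6 CPM in Smad4 KO libraries, and 723.3 and 731.9 CPM in WT libraries, and fell in the step between Smad4 KO and WT (−0.23, edgeR adjusted p = 0.00412).

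In the small subunit, Rps19, needed to mature 18S rRNA and mutated in Diamond-Blackfan anaemia, gave the largest fall across both steps. It had 620.1 and 586.7 CPM with TGF-β, 689.9 and 772.3 CPM in Smad4 KO libraries, and 938.9 and 859.1 CPM in WT libraries, with no overlap between groups. With TGF-β against WT it fell by 0.57 on the log2 scale, or 32.9% (SE 0.07, edgeR adjusted p = 0.00083). The step between Smad4 KO and WT, −0.30, lost its call without Smad4 KO library 1 or WT library 1. The TGF-β step, −0.28, lost its call on library totals, with the replicate number as a block, and without either TGF-β library or Smad4 KO library 2. Rps6, the substrate of the S6 kinases, was chosen after its values were seen and had 1123 and 1178 CPM with TGF-β, 1379 and 1404 CPM in Smad4 KO libraries, and 1575 and 1605 CPM in WT libraries. It fell by 0.19 in Smad4 KO against WT and by 0.27 with TGF-β (SE 0.03 each, edgeR adjusted p = 0.00317 and 0.00133).

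Rps25 went against most other members in the first step. This small-subunit protein, known for its part in initiation at viral internal ribosome entry sites, had 263.4 and 261.9 CPM with TGF-β, 455.3 and 449.7 CPM in Smad4 KO libraries, and 332.5 and 349 CPM in WT libraries. The Smad4 KO libraries were the highest and those with TGF-β the lowest, with replicates within a few percent of each other. Rps25 rose in Smad4 KO against WT by 0.41 on the log2 scale (32.8% higher, SE 0.04, edgeR adjusted p = 0.000468). With TGF-β against Smad4 KO it fell by 0.79 (SE 0.04, adjusted p = 7.46e-05), and against WT by 0.38 (SE 0.04, adjusted p = 0.000436). These 3 calls held under every alternative run. Rps25 (ENSMUSG00000009927, chromosome 9, 44407139 to 44410427, plus strand) shares 24.8% of its exon bases with Ccdc84 and Trappc4 on the minus strand. How the counting treated strand is not given in the sources used here, so reads of the 3 genes cannot be told apart there.

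Rps27, a zinc-finger protein of the small subunit, and Rps27rt have to be read together. Rps27 had 306.3 and 289 CPM with TGF-β, 382.4 and 391.7 CPM in Smad4 KO libraries, and 309.5 and 351.8 CPM in WT libraries. Rps27rt had 76.6 and 113.3 CPM with TGF-β, 67.4 and 51.8 CPM in Smad4 KO libraries, and 186.9 and 126.9 CPM in WT libraries. Tested alone, Rps27 rose in Smad4 KO against WT (0.23 ± 0.07, SE, edgeR adjusted p = 0.0432) and Rps27rt fell (−1.40 ± 0.26, adjusted p = 0.00813). The Rps27 call was lost on library totals (adjusted p = 0.166), with the replicate block, in the 4-library fit and on leaving out any 1 library but WT library 2. Their coding sequences are 100% identical where they align, so the split between them is uncertain. Summed, the pair had 382.9 and 402.3 CPM with TGF-β, 449.8 and 443.4 CPM in Smad4 KO libraries, and 496.4 and 478.8 CPM in WT libraries. The sum, formed after the values were seen, followed the order of most members, with log2 ratios of group means of −0.13, −0.19 and −0.31.

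**Figure D4:**
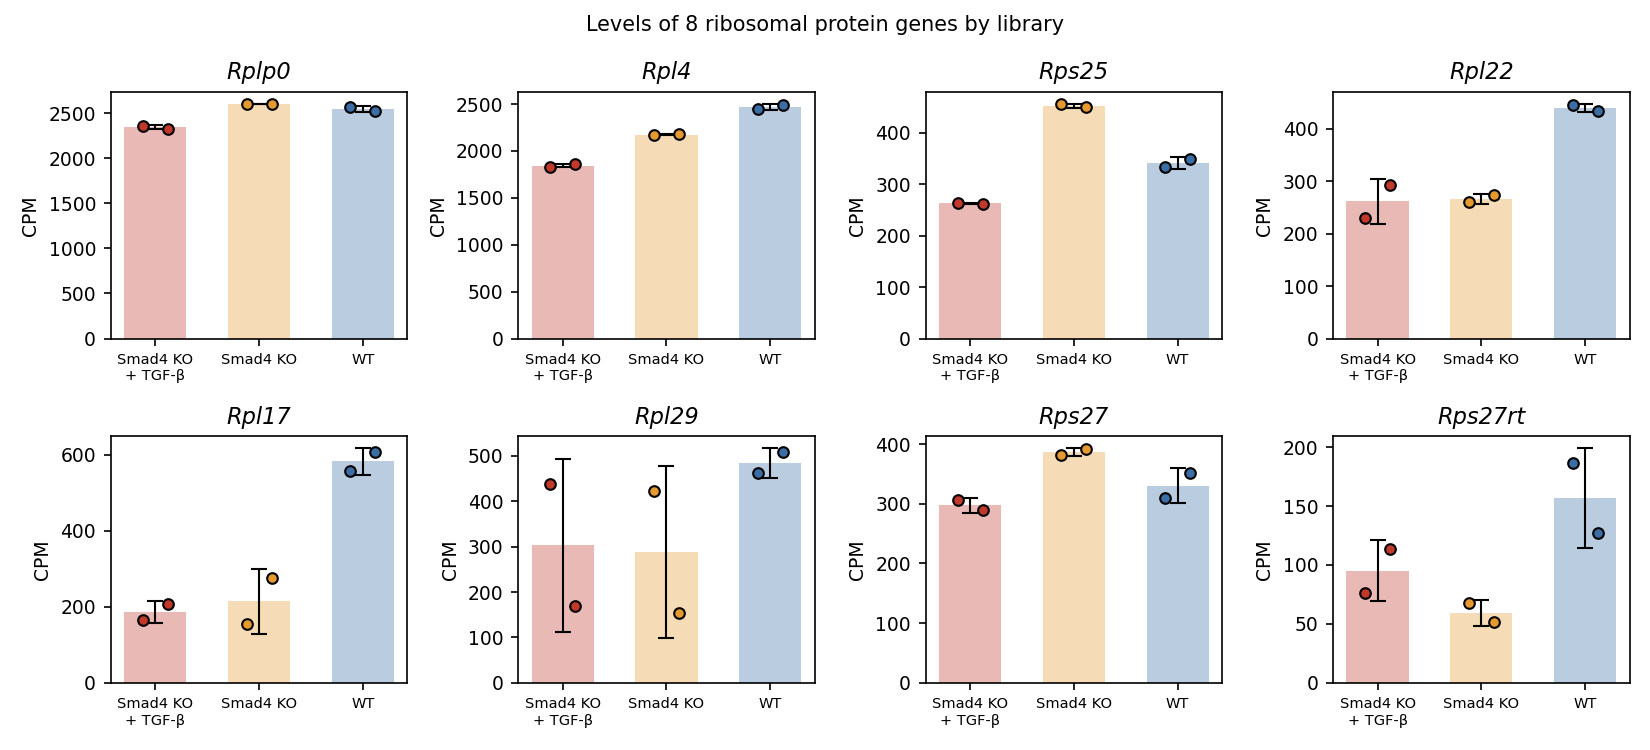
CPM of 8 ribosomal protein genes in each library. Points are libraries, bars are group means and error bars are SDs of 2 libraries. Rpl4 steps down in each KO group, Rplp0 is lowest with TGF-β, Rps25 is highest in Smad4 KO organoids, Rpl22 and Rpl17 are low in both KO groups, Rpl29 differs more between replicates than between groups, and Rps27 and Rps27rt move in opposite directions.

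The other paralogues were mostly not called. Of the 6 that were tested, Rps27rt fell in Smad4 KO against WT and Rpl22l1 fell with TGF-β against WT, and the medians of the 6 were −0.10, 0.05 and 0.00 in the 3 comparisons. Over all tested genes 13.4%, 8.48% and 19.0% were lower, and counts in 6 genes are not set apart from these shares. Rps27l, in human cells a p53-induced relative of Rps27, had 165.2 and 154.6 CPM with TGF-β, 133.4 and 142.8 CPM in Smad4 KO libraries, and 152.9 and 152 CPM in WT libraries. Its libraries with TGF-β lay above the others, and its TGF-β step of 0.21 missed the threshold (SE 0.06, edgeR adjusted p = 0.0584) but passed it on library totals, with values divided by 4 and in DESeq2. Rpl36al had 190.4 and 177.9 CPM with TGF-β, 187.4 and 198.4 CPM in Smad4 KO libraries, and 191.6 and 195.2 CPM in WT libraries, while its parent Rpl36a, a protein of the exit site, had 250.4 and 242.7, 270.6 and 278.4, and 321.8 and 322.3 CPM in the same groups and fell in all 3 comparisons (edgeR adjusted p = 0.0056, 0.0403 and 0.000435). The second of these calls was lost on library totals, with the replicate block, in the 4-library fit and on leaving out any 1 of the 6 libraries.

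Rpl7l1 had 125.1 and 124.4 CPM with TGF-β, 116.5 and 106.8 CPM in Smad4 KO libraries, and 114.5 and 117.7 CPM in WT libraries, with log2 fold changes of −0.06, 0.16 and 0.10, none called. Its parent Rpl7 had 1156 and 1073 CPM with TGF-β, 1306 and 1259 CPM in Smad4 KO libraries, and 1187 and 1345 CPM in WT libraries, also with no call. Its TGF-β step of −0.20 (edgeR adjusted p = 0.0835) passed the threshold without the filter on low counts, in the 4-library fit and in DESeq2. Its value of −0.18 with TGF-β against WT (edgeR adjusted p = 0.0616) passed it without that filter, on library totals and in DESeq2. Rps19bp1, a binding partner of Rps19 and of the deacetylase Sirt1, had 24.6 and 23.9 CPM with TGF-β, 26.5 and 27.7 CPM in Smad4 KO libraries, and 19.5 and 24.1 CPM in WT libraries, with no call. At 29.1 CPM per kilobase it had the lowest level per length among members with units in all libraries, followed by Rpl7l1 at 89.7 and Rps20 at 169.5 CPM per kilobase. The Rps20 value was taken over an annotated transcript of 3706 bases, of which 360 are coding. Rps20 itself had 672.8 and 558.5 CPM with TGF-β, 650.2 and 645.1 CPM in Smad4 KO libraries, and 614.3 and 628 CPM in WT libraries, and no call.

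Ribosomal protein genes have many processed copies in the genome, which makes their counting uncertain. In the annotation 79 of the 86 genes had at least 1 near-identical gene, with a median of 4.5 and a maximum of 57 for Rpl21, and 39 shared exon bases with another gene. Replicates nonetheless lay close together: the median over tested genes of the largest ratio between replicates was 1.09. The 6 genes with a ratio of 1.5 or more were Rpl17, Rpl21, Rpl29, Rpl7a, Rps10 and Rps27a. Of the 6 tested genes with 20 or more near-identical genes, 4 were among them, against 2 of the other 77, a limit set after the values were seen. Rpl29 had 438.5 and 168.5 CPM with TGF-β, 423.1 and 154.7 CPM in Smad4 KO libraries, and 461.5 and 508 CPM in WT libraries. One library of each KO group was thus near WT and the other far below it. Uimc1, whose listed transcripts hold a near-identical copy of Rpl29, had 316.6 and 266 CPM, 346.7 and 315.2 CPM, and 342.6 and 370.6 CPM in the same groups.

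Counts were also taken by the number of near-identical genes, with limits set after the values were seen. Of the 66 tested genes with fewer than 10 near-identical genes, 31 fell in Smad4 KO against WT, 32 with TGF-β against Smad4 KO and 47 with TGF-β against WT. In the 17 with 10 or more, the counts were 12, 7 and 13. Among 27 genes with under 5% exon overlap and fewer than 5 near-identical genes, 12, 13 and 19 fell. The shares lower over all tested genes were 13.4%, 8.48% and 19.0%. Of 7 rows with -ps in the symbol 5 were tested, and Rps12-ps3 alone was called, lower with TGF-β against Smad4 KO (−0.27, edgeR adjusted p = 0.00573) and against WT (−0.22, adjusted p = 0.00554).

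Fold changes were also set beside the pyrimidine run, which need not be a TOP tract. Standard proteins with the run (32 genes) had median log2 fold changes of −0.18, −0.23 and −0.34 in the 3 comparisons, and those without it (25 genes) had −0.17, −0.15 and −0.34. The difference between them was not tested.

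Ribosomal proteins that carry other names moved in part with the rest. Rack1, a scaffold on the small subunit, averaged 1484 CPM with TGF-β, 1741 CPM in Smad4 KO organoids and 1879 CPM in WT organoids, and fell in each step (−0.11 and −0.23, edgeR adjusted p = 0.0081 and 0.000744). Fau, whose product is cleaved to release Rps30, averaged 561.6, 718.3 and 710.3 CPM in the same groups and fell in the TGF-β step (−0.36, edgeR adjusted p = 0.00328), with 0.02 in the first (adjusted p = 0.828).

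Translation factors and other mRNAs with TOP tracts moved in part with the ribosomal proteins. Of 20 such genes, 8 fell and 3 rose in Smad4 KO against WT, 6 fell and none rose with TGF-β against Smad4 KO, and 14 fell and 2 rose with TGF-β against WT, with medians of −0.05, −0.12 and −0.19. None rose in the TGF-β step at an unadjusted p under 0.05 in edgeR, or in DESeq2. Over all tested genes, 13.4%, 8.48% and 19.0% were lower and 16.9%, 7.78% and 20.7% higher in the 3 comparisons. Eef2, which moves the ribosome along the mRNA, averaged 4023 CPM with TGF-β, 4820 CPM in Smad4 KO organoids and 4445 CPM in WT organoids. It fell with TGF-β against Smad4 KO (−0.26 ± 0.01, SE, edgeR adjusted p = 6.54e-05), and it was among the 3 that rose in the first step (0.12, adjusted p = 0.000745). Slc25a5, the mitochondrial ADP/ATP carrier, rose most clearly in that step (0.32, edgeR adjusted p = 0.000218). Eef1g, a subunit of the elongation factor 1 complex, averaged 833.4, 935.7 and 1108 CPM and fell in both steps, and by 0.41 across them (SE 0.02, edgeR adjusted p = 2.5e-05).

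Many ribosome assembly factors were called lower in each comparison with WT, and many others were not called. Of 32 factors, 15 fell and 1 rose in Smad4 KO against WT (median −0.24), 1 fell and 2 rose with TGF-β against Smad4 KO (median 0.07), and 16 fell and 3 rose with TGF-β against WT (median −0.20). Gnl3, the nucleolar protein nucleostemin, averaged 71.8 CPM with TGF-β, 74.3 CPM in Smad4 KO organoids and 104.7 CPM in WT organoids, and fell by 0.49 in Smad4 KO against WT (SE 0.05, edgeR adjusted p = 0.00102). Ebna1bp2, a factor of large-subunit assembly, rose with TGF-β against Smad4 KO (0.34, edgeR adjusted p = 0.0207). Whether the TGF-β step differs between assembly factors and ribosomal proteins was not tested. Of 15 genes of RNA polymerase I and its factors, 4 fell and 1 rose in Smad4 KO against WT, where Cd3eap, a polymerase I subunit, fell by 0.43 (SE 0.10, edgeR adjusted p = 0.0231). With TGF-β against Smad4 KO none of the 15 was called by edgeR or DESeq2, with 2 higher at an unadjusted p under 0.05. With TGF-β against WT 3 fell and 1 rose, led by Twistnb, also a subunit (−0.56, edgeR adjusted p = 0.00762). Over all tested genes, 13.4%, 8.48% and 19.0% were lower and 16.9%, 7.78% and 20.7% higher in the 3 comparisons. The 3 polymerase I genes lower with TGF-β against WT are near that share.

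**Figure D5:**
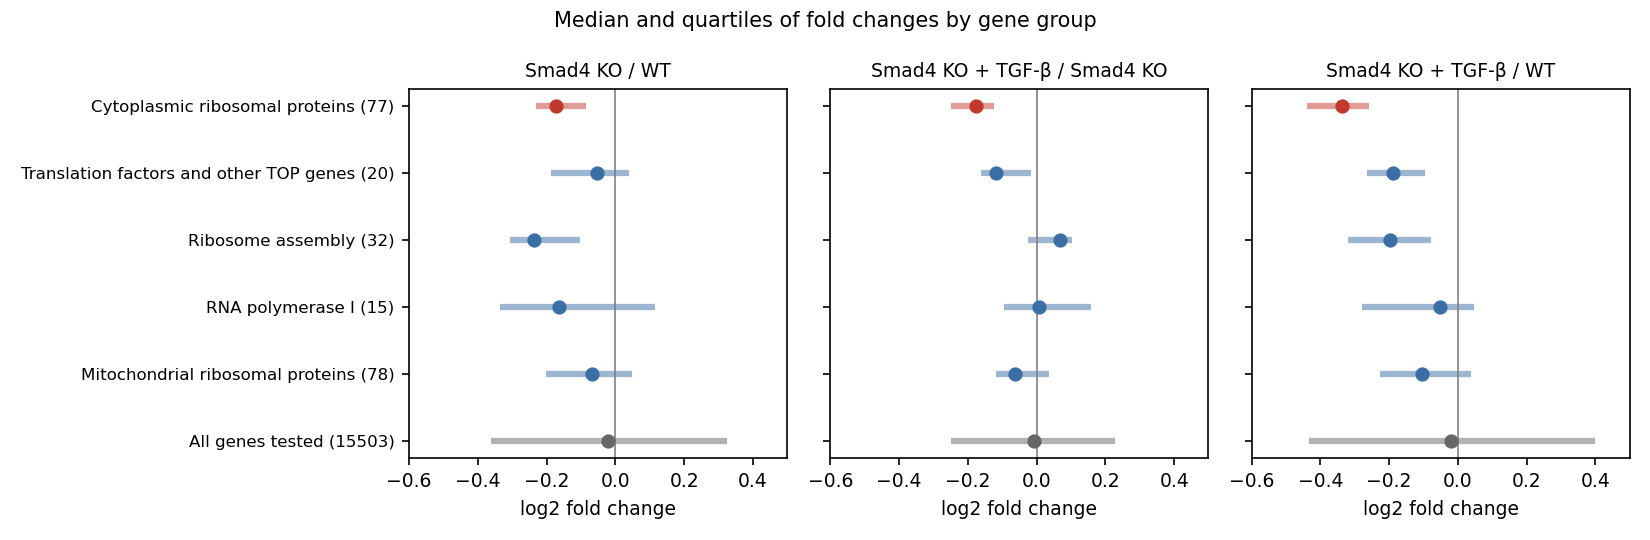
Median (point) and middle quartiles (line) of the log2 fold changes of gene groups in the 3 comparisons, with the number of tested genes in parentheses. The standard cytoplasmic ribosomal proteins have medians of −0.17, −0.18 and −0.34, assembly factors lie at −0.24 in Smad4 KO against WT and at 0.07 in the TGF-β step, and mitochondrial ribosomal proteins lie closer to 0.

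Ribosomal proteins of the mitochondrion, which translate the mitochondrial genome and are not part of the cytoplasmic ribosome, had medians closer to 0. Of 78 genes, 6 fell and 2 rose in Smad4 KO against WT, 1 rose and none fell with TGF-β against Smad4 KO, and 15 fell and 2 rose with TGF-β against WT, with medians of −0.07, −0.06 and −0.10. Over all tested genes 13.4%, 8.48% and 19.0% were lower. The counts lower were thus below that share in Smad4 KO against WT and in the TGF-β step. With TGF-β against WT they were near it. In the TGF-β step 7 were lower at an unadjusted p under 0.05, and DESeq2 called 1 lower. Mrpl23 averaged 22.6 CPM with TGF-β, 27 CPM in Smad4 KO organoids and 41.1 CPM in WT organoids, and fell by 0.61 in Smad4 KO against WT (SE 0.08, edgeR adjusted p = 0.00252). Mrps6 went the other way with TGF-β, at 57.4 CPM against 29.9 CPM in Smad4 KO organoids without it and 24 CPM in WT organoids (0.94 ± 0.10, SE, edgeR adjusted p = 0.00145).

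Among 16 genes of TOP and mTORC1 control, Eif4ebp1, which restrains cap-dependent initiation until mTORC1 phosphorylates it, averaged 58.2 CPM with TGF-β, 73.3 CPM in Smad4 KO organoids and 119.8 CPM in WT organoids. It fell in both steps, by 0.71 and 0.33 (SE 0.08 each, edgeR adjusted p = 0.000967 and 0.0317). Myc, a transcriptional activator of ribosome genes, averaged 70.9, 57.2 and 97.6 CPM in the same groups and fell in Smad4 KO against WT (−0.77, edgeR adjusted p = 0.00522). Mycn rose with TGF-β at a low level, with 8.88 CPM against 2.68 CPM in Smad4 KO organoids (1.73 ± 0.26, SE, edgeR adjusted p = 0.00618). In all, 3 of the 16 fell and 1 rose in Smad4 KO against WT, 1 fell and 1 rose with TGF-β, and 3 fell and 3 rose across both steps. Of the 10 S6 kinase genes, 2 rose in Smad4 KO against WT, Rps6ka1 (0.24, edgeR adjusted p = 0.0041) and Rps6kc1 (0.62, adjusted p = 0.0063), and Rps6ka6 fell (−0.48, adjusted p = 0.0405). Rps6ka4 alone rose with TGF-β against Smad4 KO (0.62, edgeR adjusted p = 0.00265), and Rps6kc1 led the 3 that rose with TGF-β against WT (0.79, adjusted p = 0.00165). Rps6kb1 and Rps6kb2, which encode the kinases of Rps6 itself, were not called. Over all tested genes 16.9% rose and 13.4% fell in Smad4 KO against WT. The shares were 7.78% and 8.48% with TGF-β against Smad4 KO, and 20.7% and 19.0% with TGF-β against WT. In lists this small the counts are not set apart from these shares.

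Of 8 genes of the response to faulty ribosomes, 4 rose and 2 fell in Smad4 KO against WT. The shares over all tested genes were 16.9% higher and 13.4% lower. Map3k20, the kinase that senses stalled ribosomes, fell by 0.65 (SE 0.07, edgeR adjusted p = 0.0011). Mdm2, the ubiquitin ligase that free ribosomal proteins can bind, averaged 51.2 CPM with TGF-β, 43.8 CPM in Smad4 KO organoids and 34.9 CPM in WT organoids, and with TGF-β was 0.55 above WT (SE 0.07, edgeR adjusted p = 0.00127). None of the 8 was called with TGF-β against Smad4 KO in edgeR, where 2 were higher at an unadjusted p under 0.05 and DESeq2 called 1 higher.

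Markers of cell state moved with the same groups. Summed CPM of 10 proliferation genes was 1574 and 1593 with TGF-β, 1669 and 1685 in Smad4 KO libraries, and 2367 and 2355 in WT libraries. In Smad4 KO against WT 9 of the 10 fell, and with TGF-β against Smad4 KO edgeR called none, with 3 lower at an unadjusted p under 0.05 and 1 lower in DESeq2. The 7 crypt base stem cell genes summed to 2804 and 2773 CPM, 4148 and 4189 CPM, and 7016 and 6961 CPM in the same order, with 7 of 7 lower in the first step and 5 of 7 in the second. Enterocyte genes summed to 6430 and 6416 CPM with TGF-β, 9994 and 10010 CPM in Smad4 KO libraries, and 2786 and 2787 CPM in WT libraries, with 8 of 8 higher in the first step and 7 of 8 lower in the second. Of 9 Paneth, goblet and enteroendocrine genes 7 fell in the first step and 3 fell and 1 rose in the second. Over all tested genes 13.4% fell and 16.9% rose in the first step, and 8.48% and 7.78% in the second. The mitochondrially encoded genes held 3.92% and 3.87% of units with TGF-β, 4.57% and 4.64% in Smad4 KO libraries, and 4.61% and 4.7% in WT libraries. The part of these shifts in the lower ribosomal protein mRNA was not tested.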

How the data were processed

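Per the submitters' processing notes the tools were StringTie 1.3.3b, SAMtools 1.9, HISAT2 2.1.0 and FastQC 0.11.9, with mouse GRCm38. The strand setting and annotation release were not given in the sources used here. RNA of 6 organoid libraries was sequenced, with 40549534 to 50699356 units each. The authors deposited 1 table of estimated counts per gene, whole numbers not scaled between libraries. Of values from 1 to 24, 42.3% are multiples of 4, so 1 unit is not 1 fragment. The values were tested as deposited.

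Genes were annotated with GENCODE vM21 (20 rows had no entry). Near-identical genes came from BLAST 2.17.0. edgeR 4.0.16 (R 4.3.3) fitted all 6 libraries with TMM scaling after filterByExpr (minimum count 10), with 3 residual degrees of freedom, a 2-sided quasi-likelihood test and Benjamini-Hochberg adjustment over 15503 genes. DESeq2 1.42.0, other scalings, no filter, division by 4, added -ps rows, a replicate block, 4-library fits and leave-one-out fits were alternatives. Scripts were tested on simulated data.

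The rule named the 5 largest rises and falls among called members per comparison, the 3 highest and lowest levels per length, stalk proteins, paralogues with their parents and, per list, the called gene with the smallest adjusted p. A few genes are not reported here by name. Members and lists were chosen with earlier results of these data known. With 4 units taken as 1 fragment, which is an assumption, replicates differed beyond sampling noise. Chi-square per degree of freedom was then 5.47 with TGF-β, 5.95 in Smad4 KO and 6.49 in WT. All libraries were counted separately, although these values cannot show that they came from separate cultures. Units are not independent molecules, so totals give an upper limit on precision.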

Additional observations from a re-analysis of the deposited data

How the results depend on the processing

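With 2 libraries a group and 3 residual degrees of freedom, small changes of single genes could be missed, and the scaling moves the size of small shifts. The numbers called lower stayed within 1.5 times of the reported 43, 39 and 60, and the medians within the spread between libraries, in the alternatives not named here. On library totals without TMM the median of the ribosomal protein genes was −0.26 in Smad4 KO against WT, −0.12 with TGF-β against Smad4 KO and −0.38 with TGF-β against WT, with 1 gene higher in each of the first 2. There the share of higher calls among all calls was 42.1% in place of 55.7%, 57.4% in place of 47.8% and 47% in place of 52.3%, in the same order of comparisons. On the same totals Rpl10 (−0.032), Rpl18 (−0.012), Rpl7 (−0.074), Rplp0 (−0.06) and Rps20 (−0.033) turned below 0 in Smad4 KO against WT, and Rpl22 turned to 0.019 in the TGF-β step. Rpl36al turned to 0.001 in Smad4 KO against WT with the 4 libraries of those groups only and to 0.002 with DESeq2 size factors and in DESeq2, and Rps20 to 0.001 with TGF-β against WT with those size factors and in DESeq2. One gene was higher with TGF-β against Smad4 KO in DESeq2 and with values divided by 4, and 1 in Smad4 KO against WT in the 4-library fit. The causes were not tested.

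Over all tested genes the replicate numbers showed no pairing of the libraries: deviations from group means correlated at 0.03 between the Smad4 KO groups with and without TGF-β, 0.02 between Smad4 KO with TGF-β and WT, and −0.03 between Smad4 KO and WT. Over the ribosomal protein genes alone these were 0.52, −0.10 and 0.03. Rpl29 had the widest gap between replicates in both Smad4 KO groups, and in the same direction. It had 438.5 and 168.5 CPM with TGF-β and 423.1 and 154.7 CPM without it. No correlation was taken without Rpl29, so the 0.52 does not show that these genes as a group varied by replicate number. The labels do not state a pairing. With the replicate block 1 gene was higher and 38 lower in Smad4 KO against WT, 36 were lower with TGF-β against Smad4 KO and 58 with TGF-β against WT.

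Leaving out 1 library at a time gave 1 to 3 genes higher and 28 to 45 lower in Smad4 KO against WT, with medians from −0.19 to −0.15. With TGF-β against Smad4 KO 25 to 38 were lower, with medians from −0.21 to −0.16, and with TGF-β against WT the median ran from −0.37 to −0.32. The lowest counts were without Smad4 KO library 1 and without TGF-β library 2. Uncalled genes that changed sign in Smad4 KO against WT were Rpl18 (−0.049 to 0.201), Rpl36al (−0.045 to 0.037), Rpl7 (−0.064 to 0.112) and Rpl7l1 (−0.121 to 0.006). With TGF-β against Smad4 KO these were Rpl17 (−0.56 to 0.28), Rpl22 (−0.21 to 0.13), Rpl38 (−0.215 to 0.043) and Rps20 (−0.213 to 0.051), and with TGF-β against WT Rps20 (−0.15 to 0.12). Of 43 calls on single named genes, 28 held under every alternative. The share of units was 5.399%, 5.997% and 7.11% without mitochondrially encoded genes in Smad4 KO with TGF-β, Smad4 KO and WT, and 5.78% in Smad4 KO and 6.84% in WT with the -ps rows added.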
